A study of Homo sapiens with 179 samples.

Results

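Retinoic acid signalling was followed through 8 genes: the nuclear receptors RARA, RARB and RARG, the membrane receptor STRA6, the binding proteins CRABP1 and CRABP2, and the enzymes CYP26A1 and DHRS3. They were taken by gene symbol from the deposited tables, where all 8 were found among 19084 genes. The study sequenced RNA of H1, a widely used line of human embryonic stem cells, to compare LM-Seq, a low-cost library protocol, with the commercial TruSeq kit. LM-Seq libraries, which select polyadenylated RNA with oligo-dT and prime it with random hexamers, were sequenced with 95 samples in Lane 1, 48 in Lane 2, 24 in Lane 3 and 6 in Lane 4. TruSeq libraries were H1p43 and H1p16, with 3 replicates each. All groups were unmodified H1 cells on Matrigel in the defined medium E8, with no retinoid among the treatments the labels name. The sources used here do not give what p43 and p16 stand for. H1 is 1 cell line, so nothing here compares donors. Nothing in the labels says that replicates were separate cultures, so every p-value measures only the variation among these libraries, and that may be technical.

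All-trans retinoic acid is made from vitamin A (retinol) through retinaldehyde. It enters the nucleus and binds a retinoic acid receptor, RAR, which sits on DNA with a retinoid X receptor, RXR, at paired hexamer sequences; without ligand the pair recruits corepressors, and with ligand it recruits coactivators. Pluripotent stem cells leave the undifferentiated state when retinoic acid is added, and RARB, CYP26A1 and DHRS3 are classical genes that it induces.

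Promoter windows of these genes were read for sequences that the receptors can bind. RefSeq windows (build GRCh38.p14, 250 bases before to 50 bases after each start) were found for all 8 genes, 20 windows in all because several genes have more than 1 start. They were searched on both strands for the receptor hexamer (AGGTCA and AGTTCA, together with GGGTCA and also GGTTCA) and for direct repeats of it with gaps of 1, 2 or 5 bases, called DR1, DR2 and DR5. A DR5 was found in 1 window of RARB and 1 window of CYP26A1, and no DR1 or DR2 in any of the 20. A DR5 is rare, present in 31 of 35116 RefSeq windows (0.0883%), against 0.131% for DR1, 0.0399% for DR2 and 38.6% for a single hexamer. The 2 windows are shown because they hold a DR5, with the hexamers of the repeat in capitals. DHRS3, the other classical induced gene named above, had no such repeat in its 3 windows. In RARB (chr3:25428013-25428312, plus strand) the repeat lies at -53 to -37 from the start. In CYP26A1 (chr10:93073643-93073942, plus strand) it lies at -90 to -74 and reads on the minus strand, so that the capitals show the reverse complement of the hexamer.
RARB: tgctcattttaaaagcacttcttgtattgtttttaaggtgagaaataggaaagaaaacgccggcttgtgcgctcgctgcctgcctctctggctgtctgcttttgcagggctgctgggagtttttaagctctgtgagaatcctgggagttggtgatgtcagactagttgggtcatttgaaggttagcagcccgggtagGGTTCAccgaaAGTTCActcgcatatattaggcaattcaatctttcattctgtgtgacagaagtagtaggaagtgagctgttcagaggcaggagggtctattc
CYP26A1: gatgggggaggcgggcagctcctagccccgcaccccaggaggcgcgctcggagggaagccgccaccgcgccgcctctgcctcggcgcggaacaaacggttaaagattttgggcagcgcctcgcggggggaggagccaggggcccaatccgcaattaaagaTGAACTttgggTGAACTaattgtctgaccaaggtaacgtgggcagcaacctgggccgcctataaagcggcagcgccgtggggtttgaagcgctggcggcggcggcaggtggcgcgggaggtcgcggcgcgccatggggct
A match to these letters is a description of the sequence and not evidence of binding in H1. Sequence outside these windows was not searched, so a gene without a repeat here may have one elsewhere. Hexamers lay in 10 of the 20 windows, and the RARB window shown holds 3 of them.

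Depth set what could be seen. Library totals of expected counts, which are the read numbers per gene that RSEM estimates, lay between 1040671 and 1539277 (Lane 1), between 2005736 and 2739084 (Lane 2), between 4028607 and 4918577 (Lane 3) and between 15780078 and 16583048 (Lane 4). They were 29018106 to 35852646 in H1p43 and 23680503 to 30628645 in H1p16. Levels are given as TPM, which scales counts by transcript length and library total and so can be compared between genes. The pluripotent identity in the labels was met by its markers, with all 10 of 10 at 1 TPM or more in every group. Of the markers of other cell types, 3 of 10 neuroectoderm genes (NES, OTX2 and DCX), 2 of 12 mesendoderm and endoderm genes (CER1 and CXCR4) and 5 of 13 stroma and extraembryonic genes reached a mean of 1 TPM in Lane 4 or a TruSeq group. The 5 were THY1, COL1A1, COL1A2, KRT7 and PDGFRA. Of these, the stromal collagen genes COL1A1 and COL1A2 had means of at least 44.91 and 29.29 TPM in every group. The stromal genes DCN and LUM, in contrast, were at 0 in every library.

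The 8 genes spanned a wide range of levels in H1, from 0.29 TPM for RARB to 347.1 TPM for CRABP1 on average in H1p43. In TruSeq the order of mean TPM was CRABP1, CRABP2, RARG, RARA, DHRS3, STRA6, CYP26A1 and RARB. Neighbours in that order did not overlap, with the exception of RARA and DHRS3 in H1p43 (12.9 to 13.9 TPM against 11.3 to 13.2 TPM). In all 4 LM-Seq lanes the order of means was CRABP1, CRABP2, RARG, DHRS3, RARA, CYP26A1, STRA6 and RARB. RARA was above CYP26A1 in 51 of 95 libraries of Lane 1, 33 of 48 of Lane 2, 11 of 24 of Lane 3 and 4 of 6 of Lane 4, so these neighbours did not differ beyond their spread.

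**Figure D1:**
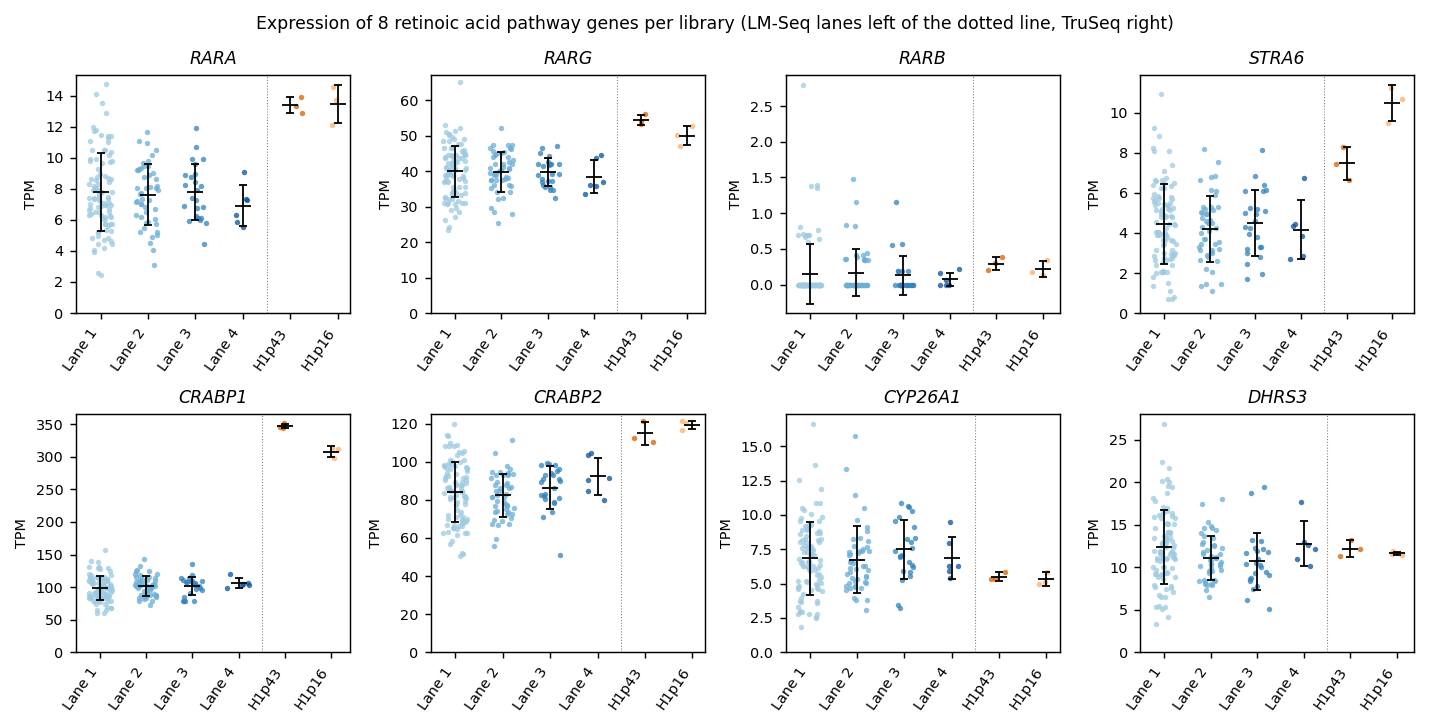
TPM of each gene in every library (points), with the mean and SD (black bars), for LM-Seq Lanes 1 to 4 (n = 95, 48, 24 and 6) and for TruSeq H1p43 and H1p16 (n = 3 each). CRABP1 lies at 297.6 to 351.2 TPM in TruSeq and at or under 156.7 TPM in all LM-Seq libraries. DHRS3 and CYP26A1, in contrast, lie at like levels in both protocols. RARB has group means of at most 0.29 TPM, but single LM-Seq libraries reach up to 2.79 TPM, there from 4 counts.

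Of the 3 RAR genes, RARG had the highest mean TPM in H1 by either protocol. Its TPM exceeded that of RARA in every library, by a ratio of 4.82 to 6.63 in Lane 4 and of 3.63 to 4.35 in TruSeq. RARB, the receptor gene that retinoic acid induces, did not exceed 0.38 TPM in any TruSeq library. These ratios compare length-adjusted levels of different genes and were not tested.

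The first comparison set H1p43 against H1p16, the 2 labelled groups of one protocol. STRA6, the membrane receptor that takes up retinol from its carrier in blood, was lower in H1p43, and so by a smaller step was CRABP2, which delivers retinoic acid to the receptors. CRABP1, which binds retinoic acid in the cytosol, was slightly higher. The 3 nuclear receptors and both enzymes did not pass the test. In edgeR's quasi-likelihood test with p adjusted over all 14574 genes tested, 3 of 8 members were called at an adjusted p below 0.05, against 71.8% of all genes. Of the 8, 1 was called higher (36.4% of all genes) and 2 lower (35.4% of all genes). Their share was therefore not above that of genes at large, and their median log2 fold change was -0.05, against 0.01 over all genes tested.

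STRA6 measured 7.44, 8.31 and 6.67 TPM in H1p43, against 10.7, 11.3 and 9.51 TPM in H1p16. The groups did not overlap, and the log2 fold change was -0.50 ± 0.08 (SE, n = 3 each; edgeR adjusted p = 2.43e-05). This was the largest called change among the 8 genes. CRABP2 measured 110.4, 121.4 and 112.7 TPM in H1p43, against 121.1, 120.1 and 116.8 TPM in H1p16. The TPM ranges overlapped, although the count-based log2 fold change of -0.17 ± 0.04 was called (edgeR adjusted p = 0.000808). CRABP1 measured 345.5, 344.6 and 351.2 TPM in H1p43, against 311.8, 313.0 and 297.6 TPM in H1p16. These ranges did not overlap, and its log2 fold change of 0.07 ± 0.03 passed narrowly (edgeR adjusted p = 0.0463).

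Among the receptors, RARG measured 56.1, 53.3 and 54.2 TPM in H1p43, against 52.8, 50.4 and 47.2 TPM in H1p16. Every H1p43 value was above every H1p16 value, but the counts gave a log2 fold change of 0.05 ± 0.04 and no call (edgeR adjusted p = 0.266). RARA averaged 13.4 ± 0.52 TPM in H1p43 and 13.4 ± 1.24 TPM in H1p16 (SD, n = 3 each), with a log2 fold change of -0.11 ± 0.06 (edgeR adjusted p = 0.0952). RARB, with 9 to 16 counts in H1p43 libraries and 4 to 15 in H1p16 libraries, had a log2 fold change of 0.30 ± 0.40 (edgeR adjusted p = 0.518), too few counts to place the difference. CYP26A1, which oxidises and so clears retinoic acid, averaged 5.50 ± 0.32 TPM in H1p43 and 5.32 ± 0.49 TPM in H1p16. DHRS3, which reduces retinaldehyde back to retinol, averaged 12.2 ± 0.96 TPM in H1p43 and 11.6 ± 0.20 TPM in H1p16. Their log2 fold changes of -0.06 ± 0.10 and -0.04 ± 0.07 did not pass (edgeR adjusted p = 0.581 for CYP26A1 and 0.666 for DHRS3).

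The scale decided the small differences. On library totals in place of TMM factors, edgeR's correction for library composition, an alternative chosen after seeing the data, the median log2 fold change of all genes was 0.14 and the share of calls that were higher in H1p43 was 67.1%, against 0.01 and 50.7% with TMM; limma on log2(TPM + 1) gave a share of 64.2%. Relative to library totals CRABP2 was at -0.04 and not called (edgeR adjusted p = 0.316), RARG was called at 0.17 (edgeR adjusted p = 0.000501), and RARA, CYP26A1 and DHRS3 changed sign to 0.01, 0.06 and 0.09 without a call. STRA6 was called on every scale, at -0.38 relative to library totals. CRABP1 was positive on every scale, at 0.19 relative to library totals, but DESeq2 did not call it (adjusted p = 0.153) and it lost its call without H1p16 replicate 2 or 3 or any 1 of the 3 H1p43 replicates (edgeR adjusted p = 0.0564 to 0.194). RARA was called without H1p16 replicate 3 (-0.19, edgeR adjusted p = 0.00376). Tested against a fold change of 1.5, none of the 8 was called, against 11% of all genes.

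**Figure D2:**
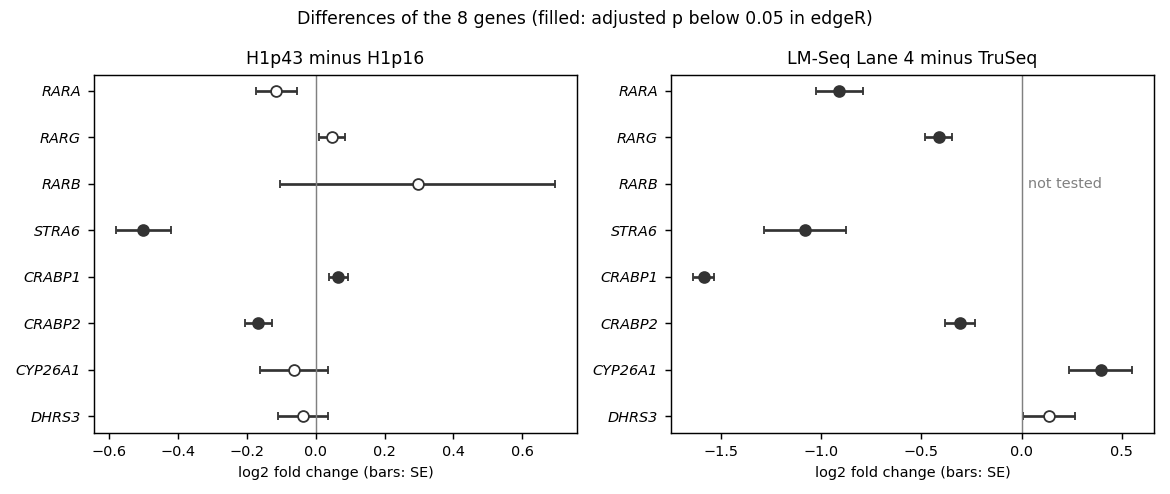
Log2 fold change of each gene with its SE, in H1p43 minus H1p16 (left, n = 3 each) and in LM-Seq Lane 4 minus TruSeq (right, n = 6 each); filled points had an edgeR adjusted p below 0.05. On the left only STRA6 lies beyond 0.30 in size, and on the right CRABP1, STRA6 and RARA lie between -1.59 and -0.91. The panels have different axis ranges, and RARB had too few counts to be tested on the right.

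Other genes of the retinoid machinery were read from lists compiled for the pathway, with calls from the same test across all genes. Of 12 tested RXR and coregulator genes 9 were lower and 2 higher (median log2 fold change -0.31). Of all genes 35.4% were lower and 36.4% higher, which is also the background of the list counts that follow. The coactivator acetyltransferases CREBBP and EP300 fell by 0.85 and 0.82 on the log2 scale: EP300 averaged 41.2 ± 1.14 TPM in H1p43 and 67.4 ± 1.52 TPM in H1p16 (edgeR adjusted p = 1.46e-14). The p160 coactivators NCOA2 and NCOA1 had log2 fold changes of -0.58 ± 0.04 and -0.40 ± 0.04, MED1, a Mediator subunit that nuclear receptors contact, of -0.35 ± 0.03, and ZNF423, a zinc finger protein that interacts with receptors at retinoid elements, of -0.33 ± 0.04. All 4 passed the same test (edgeR adjusted p of at most 8.69e-07).

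Of 20 tested genes for retinoid synthesis, transport, storage and breakdown, 6 were higher and 4 lower (median 0.02). RDH10, which oxidises retinol to retinaldehyde, was higher and averaged 4.70 ± 0.33 TPM in H1p43 and 3.01 ± 0.16 TPM in H1p16 (log2 fold change 0.54 ± 0.09, edgeR adjusted p = 2.08e-05). ALDH1A3, which turns retinaldehyde into retinoic acid, was also higher and averaged 4.45 ± 0.29 TPM in H1p43 and 2.39 ± 0.26 TPM in H1p16 (0.79 ± 0.10, edgeR adjusted p = 1.43e-06). LRAT, which esterifies retinol for storage, was lower (-0.62 ± 0.05), whereas DGAT1, which can also esterify it, was higher (0.44 ± 0.06). FABP5, a fatty acid binding protein that can also carry retinoic acid, was the most abundant gene of this list, with 471.1 ± 4.39 TPM in H1p43 and 675 ± 4.91 TPM in H1p16 (-0.63 ± 0.02), and RDH13, a retinol dehydrogenase family member, was lower too (-0.22 ± 0.06). RDH13 was not called on library totals (-0.09).

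CYP26B1, which also oxidises retinoic acid, was named after its values were seen. It had 19, 21 and 20 counts in H1p43, against 0, 3 and 1 counts in H1p16, with a log2 fold change of 3.44 ± 0.52 (edgeR adjusted p = 1.14e-05). At 0.25 to 0.33 TPM in H1p43 it stayed far under the 5.30 to 5.87 TPM of CYP26A1 there.

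Target genes that retinoic acid induces were mostly under 1 TPM. Of 28 listed targets, 3 reached 1 TPM, among them TGM2, a transglutaminase, and RARRES2, which encodes the secreted protein chemerin. HOXA2, HOXA3, HOXA4, HOXB4 and HOXB5 were at 0 in every library. In H1p43, 3 of 6 tested targets were higher and 2 lower (median 0.52), with TGM2 at 1.29 ± 0.15 and RARRES2 at 0.47 ± 0.04. RARRES2 averaged 373.7 ± 3.24 TPM in H1p43 and 250.9 ± 16.1 TPM in H1p16.

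Pluripotent markers moved with these groups. Of 10, 9 were lower in H1p43 and none higher (median -0.47), and their summed level was 7098 to 7130 TPM in H1p43 and 8776 to 8976 TPM in H1p16. POU5F1, NANOG and SOX2 had log2 fold changes of -0.16 ± 0.02, -0.24 ± 0.03 and -0.29 ± 0.02. On library totals these 3 genes were nearer to no change, at -0.04, -0.12 and -0.16. Each was still called there, POU5F1 narrowly (edgeR adjusted p = 0.046). Summed neuroectoderm markers were 148.4 to 151.1 TPM in H1p43 and 162.5 to 167.2 TPM in H1p16. That order is set by NES, with a mean of 111.6 TPM in H1p43 and 134.1 TPM in H1p16; the rest of the list summed to 37.8 TPM in H1p43 and 30.9 TPM in H1p16, and of 5 tested genes 3 were called higher and 1 lower. Mesendoderm and endoderm markers summed to 6.88 to 7.13 TPM in H1p43 and 4.67 to 5.17 TPM in H1p16. That order follows 2 genes of the 12. CER1 averaged 3.59 TPM in H1p43 and 2.62 TPM in H1p16, and CXCR4 averaged 1.74 TPM in H1p43 and 0.58 TPM in H1p16. Only 2 genes of the list were tested, with 1 called higher. Stroma and extraembryonic markers, mostly THY1, which H1 cells express, summed to 490.1 to 504.9 TPM in H1p43 and 560.6 to 597.8 TPM in H1p16, with 2 of 7 tested genes called higher and 4 lower. Without THY1 the list summed to 110.4 TPM in H1p43 and 84.3 TPM in H1p16. The part of cell composition in the changes of STRA6, CRABP1 and CRABP2 was not tested, and in bulk RNA fewer expressing cells cannot be told apart from less RNA per cell.

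**Figure D3:**
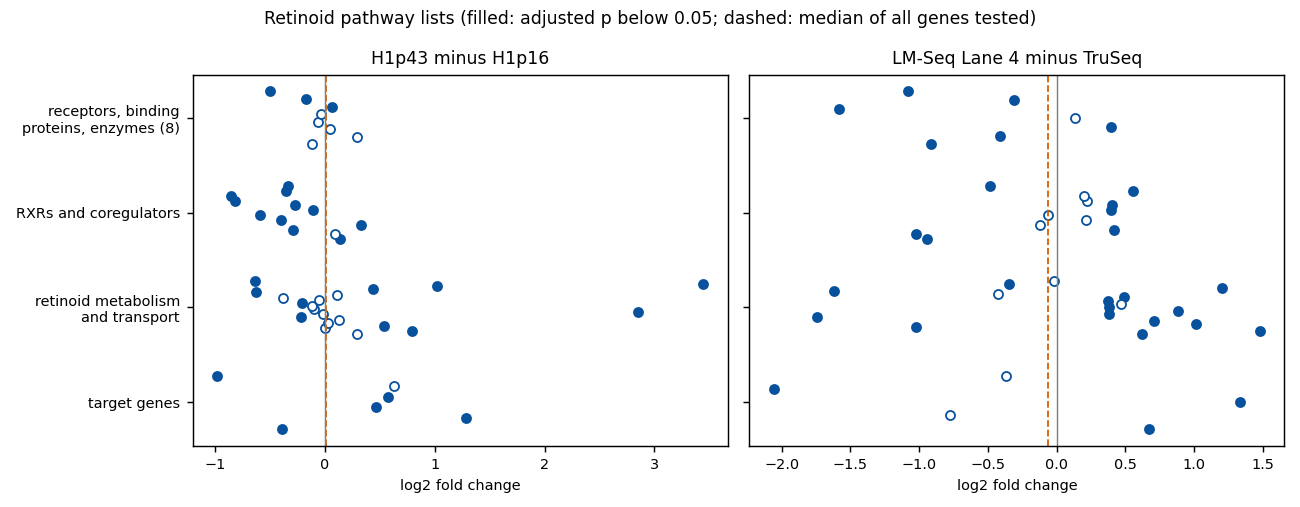
Log2 fold changes of all tested genes of 4 retinoid lists, in H1p43 minus H1p16 (left) and LM-Seq Lane 4 minus TruSeq (right). Each point is 1 gene, filled where the edgeR adjusted p was below 0.05, and the dashed line is the median of all genes tested (0.01 left, -0.06 right). RXR and coregulator genes lie mostly left of the line in H1p43, where 9 of 12 were called lower; the 2 points farthest right on the left panel are CYP26B1 and RDH16, both under 1 TPM.

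The second comparison set LM-Seq Lane 4, the LM-Seq lane nearest in depth, against TruSeq, which asked how the protocols differ in reading these genes. CRABP1 averaged 106.2 ± 7.23 TPM in Lane 4 and 327.3 ± 22.5 TPM in TruSeq (SD, n = 6 each), and its relative CRABP2 was lower by a smaller step. RARA, STRA6 and RARG were lower too. DHRS3 did not pass the test and CYP26A1 passed on some settings only. In edgeR's quasi-likelihood test 6 of 7 tested members were called, against 71.3% of all 13827 genes. Of the 7, 5 were called lower (36.9% of all genes) and 1 higher (34.3% of all genes). The members' median log2 fold change was -0.41, against -0.06 over all genes tested.

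CRABP1 measured 102.9, 105.9, 105.1, 120.2, 103.97 and 99.3 TPM in Lane 4, and from 297.6 through a median of 328.8 to 351.2 TPM in TruSeq. The groups lay far apart, and the log2 fold change was -1.59 ± 0.05 (SE, n = 6 each; edgeR adjusted p = 8.02e-13). CRABP2 measured 103.3, 104.3, 84.5, 91.4, 79.9 and 90.5 TPM in Lane 4, and from 110.4 through 118.4 to 121.4 TPM in TruSeq. Its ranges did not overlap either, with a log2 fold change of -0.31 ± 0.08 (edgeR adjusted p = 0.00174). The ratio of CRABP1 to CRABP2 was 1.16 ± 0.14 in Lane 4 and 2.80 ± 0.27 in TruSeq (SD over 6 libraries per group), a description that was not tested. CRABP1 exceeded CRABP2 in 71 of 95, 43 of 48, 20 of 24 and 5 of 6 libraries of Lanes 1 to 4, and in 6 of 6 TruSeq libraries.

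**Figure D4:**
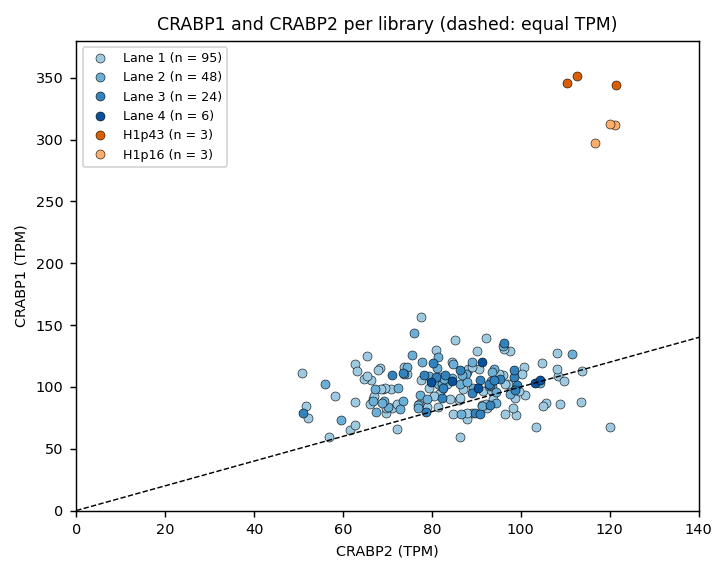
TPM of CRABP1 against CRABP2 in each library, with equal TPM as a dashed line. LM-Seq libraries of all 4 lanes form 1 cloud around the line, with CRABP1 at 59.8 to 156.7 TPM, and the 6 TruSeq libraries lie apart from it, with H1p43 above H1p16 in CRABP1.

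STRA6 measured 6.76, 3.84, 4.45, 4.36, 2.85 and 2.69 TPM in Lane 4, and from 6.67 through 8.91 to 11.3 TPM in TruSeq. One Lane 4 library lay just above the lowest TruSeq library, so the ranges overlapped, and the log2 fold change was -1.08 ± 0.20 (edgeR adjusted p = 0.000184). Since STRA6 differed between the TruSeq groups, its distance depended on which one was used: -0.81 against H1p43 and -1.32 against H1p16. CRABP2 was likewise at -0.22 against H1p43 and -0.40 against H1p16.

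RARA measured 5.56, 7.37, 5.84, 9.11, 7.30 and 6.30 TPM in Lane 4, and from 12.1 through 13.5 to 14.5 TPM in TruSeq. No library overlapped, and the log2 fold change was -0.91 ± 0.12 (edgeR adjusted p = 3.54e-06). RARG measured 36.9, 44.5, 36.2, 43.9, 35.8 and 33.6 TPM in Lane 4, and from 47.2 through 53.02 to 56.1 TPM in TruSeq. It did not overlap either, with a smaller log2 fold change of -0.41 ± 0.07 (edgeR adjusted p = 4.61e-05). The heterodimer partners went the same way: RXRA averaged 8.98 ± 0.63 TPM in Lane 4 and 17.7 ± 1.77 TPM in TruSeq (-0.94 ± 0.07), and RXRB 7.11 ± 1.2 TPM in Lane 4 and 14.9 ± 1.34 TPM in TruSeq (-1.02 ± 0.11).

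The enzymes read alike in both protocols or nearly so. CYP26A1 measured 6.31, 5.89, 9.46, 7.96, 5.39 and 6.25 TPM in Lane 4, and from 4.95 through 5.31 to 5.88 TPM in TruSeq. The ranges met in 1 Lane 4 library, at 5.39 TPM, and the other 5 lay above all TruSeq libraries, with a log2 fold change of 0.39 ± 0.16 (edgeR adjusted p = 0.0362). The call held in 10 of 25 alternatives, and without the library Lane4_38871 the log2 fold change was 0.26 (edgeR adjusted p = 0.117; range over the 25 alternatives 0.00931 to 1). DHRS3 measured 10.96, 12.6, 10.1, 12.2, 12.95 and 17.7 TPM in Lane 4, and from 11.3 through 11.7 to 13.2 TPM in TruSeq. The ranges overlapped throughout (0.14 ± 0.13, edgeR adjusted p = 0.361), and a single library, Lane4_38874, held the highest value.

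These steps also depend on the scale, since library totals alone put the median of all genes at -0.37 and the share of calls higher in Lane 4 at 31%, against -0.06 and 48.2% with TMM. On that scale the same 5 members were called lower (CRABP1 -1.89, STRA6 -1.37, RARA -1.21, RARG -0.72 and CRABP2 -0.61), CYP26A1 was at 0.09 and not called, and DHRS3 turned to -0.17 without a call. Tested against a fold change of 1.5, 3 of 7 were called (CRABP1, STRA6 and RARA), against 33.5% of all genes. Protocol, culture and sequencing lane changed together between LM-Seq and TruSeq and cannot be told apart.

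Around the 8 genes, 4 of 12 tested RXR and coregulator genes were higher in Lane 4 and 3 lower (median 0.21), where 34.3% of all genes were higher and 36.9% lower. Besides the RXRs, ZNF423 was lower (-0.49 ± 0.09), and MED1 (0.56 ± 0.08), NRIP1, a ligand-dependent corepressor (0.40 ± 0.09), and NCOR1, a corepressor of unliganded receptors (0.42 ± 0.07), were higher. NCOR1 averaged 78.3 ± 6.67 TPM in Lane 4 and 39.6 ± 3.14 TPM in TruSeq, a wider gap in TPM than in counts. On library totals NRIP1 and NCOR1 were not called (0.11 and 0.12). Of 17 tested metabolism and transport genes 10 were higher and 4 lower (median 0.38). ALDH1A3 (1.48 ± 0.20), LRAT (1.2 ± 0.14) and RDH10 (1.01 ± 0.17) were higher, and RBP7, a retinol binding protein (-1.62 ± 0.36), RDH12 (-1.75 ± 0.52) and RDH5 (-1.02 ± 0.34), a pair of retinol dehydrogenases, were lower. Of 5 tested targets 2 were higher, among them RARRES2 (1.33 ± 0.10), and 1 was lower.

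Markers moved with the protocol too. The 10 pluripotent markers had 8 higher and 2 lower in Lane 4 (median 0.74), with NANOG at 0.29 ± 0.07, POU5F1 at -0.54 ± 0.05 and SOX2 at -0.69 ± 0.08. NANOG was at -0.01 on library totals, with the opposite sign and no call. Summed neuroectoderm markers, mostly NES, were 209.8 to 260.8 TPM in Lane 4 and 148.4 to 167.2 TPM in TruSeq. Without NES the list went the other way, at 20.8 TPM in Lane 4, 37.8 TPM in H1p43 and 30.9 TPM in H1p16, and of 5 tested genes 1 was called higher and 2 lower. Stroma and extraembryonic markers summed to 391.9 to 427.8 TPM in Lane 4 and 490.1 to 597.8 TPM in TruSeq. There too the sum follows 1 gene, THY1, without which it was 157.7 TPM in Lane 4, 110.4 TPM in H1p43 and 84.3 TPM in H1p16, and of 5 tested genes 3 were called higher and 1 lower. Mesendoderm and endoderm markers summed to 2.20 to 6.10 TPM in Lane 4 and 4.67 to 7.13 TPM in TruSeq, and of 2 tested genes none was called. The part of these marker differences in the differences of the 8 genes was not tested.

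RARB was the only one of the 8 that was not found in every library. At least 1 count was found in 14 of 95 libraries of Lane 1 (14.7%, exact 95% binomial interval 8.30% to 23.5%), 14 of 48 of Lane 2 (29.2%, 16.95% to 44.1%), 7 of 24 of Lane 3 (29.2%, 12.6% to 51.1%), 3 of 6 of Lane 4, and 3 of 3 in both H1p43 and H1p16. The other 7 genes had at least 1 count in every library, and of these STRA6 was the thinnest, with at least 3 counts in 83 of 95 libraries of Lane 1, where CYP26A1 had them in 94 of 95. Thinned to a common total of 1040667 counts, RARB was found in 13 of 95, 8 of 48, 4 of 24 and 1 of 6 libraries of Lanes 1 to 4, in 0 of 3 of H1p43 and in 1 of 3 of H1p16. At equal depth the shares of the lanes thus lay within each other's intervals. At the median depth of Lane 1 a floor of 3 counts corresponds to 2.34 CPM, counts scaled to the library total, which is well above the summed RARB level of every group.

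Summed over libraries, RARB amounted to 0.166 CPM in Lane 1 (exact 95% Poisson interval 0.101 to 0.256), 0.184 CPM in Lane 2 (0.114 to 0.282), 0.146 CPM in Lane 3 (0.0833 to 0.237) and 0.0819 CPM in Lane 4 (0.0354 to 0.161). It amounted to 0.418 CPM in H1p43 (0.300 to 0.568) and 0.313 CPM in H1p16 (0.205 to 0.459). These intervals cover counting error only. Lane 4 and the pooled TruSeq libraries (0.370 CPM, 0.287 to 0.470) did not overlap in their intervals, while the 4 lanes overlapped with each other. The filter on low counts left RARB out of the test against TruSeq; with no filter its log2 fold change was -1.82 (edgeR adjusted p = 0.0433).

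**Figure D5:**
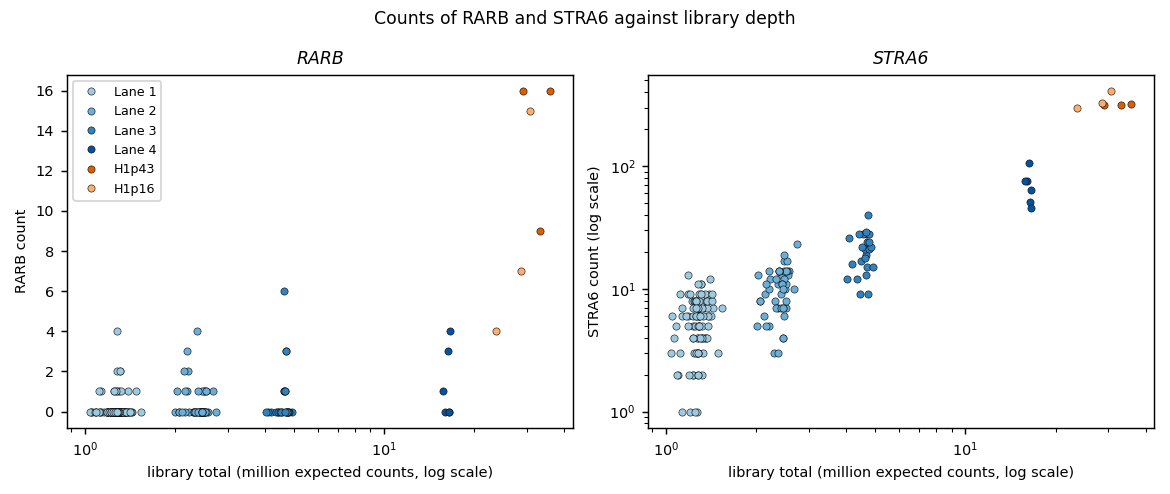
Expected count of RARB (left, linear axis) and STRA6 (right, log axis) in each library against the library total (log axis). RARB has 0 to 4 counts in every library of Lanes 1, 2 and 4, up to 6 in Lane 3 and 4 to 16 in TruSeq, whereas STRA6 counts grow with depth within LM-Seq and lie at 299 to 413 in TruSeq.

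Comparisons between LM-Seq lanes asked whether sharing a lane among more samples shifts the levels. None of the members was called in Lane 2 (6 tested), Lane 3 (7 tested) or Lane 4 (7 tested) against Lane 1, using the library numbers present in both lanes, in edgeR's quasi-likelihood test. This matches the background, with calls for 0% of 10120 genes in Lane 2, 0% of 10871 in Lane 3 and 0.0161% of 12419 in Lane 4, and with 182 genes in Lane 2 and 216 in Lane 3 at an unadjusted p below 0.05. Numbers recur between lanes and same-numbered libraries varied together, so a fit with the library number as a block was also made. It called 0.257%, 0.405% and 0.105% of genes in Lanes 2, 3 and 4 and none of the members. Without the block, differences between numbers count as noise, which makes that test cautious. The spread beyond counting that edgeR estimated was 0.0874, 0.0912 and 0.11 in Lanes 2, 3 and 4 without the block. With the block it was 0.00988 in each, the lowest value that edgeR's search allows. That value is therefore a limit and not a measured spread. Whether a number is 1 library sequenced again is not stated in the labels.

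The receptors held steady. RARG averaged 40.1 ± 7.21 TPM in Lane 1 (lowest 23.6, median 40.4, highest 65.2), 39.8 ± 5.68 TPM in Lane 2, 39.7 ± 3.98 TPM in Lane 3 and 38.5 ± 4.57 TPM in Lane 4. RARA averaged 7.78 ± 2.49 TPM in Lane 1 (from 2.48 through 7.41 to 14.7), 7.62 ± 1.96 in Lane 2, 7.80 ± 1.81 in Lane 3 and 6.91 ± 1.31 in Lane 4. The means moved by less than 1 SD, and among the lanes the extremes of both genes were found in Lane 1, the shallowest.

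CRABP1 averaged 98.4 ± 18.7 TPM in Lane 1 (from 59.8 through 97.96 to 156.7), 102.2 ± 15.4 TPM in Lane 2, 101.8 ± 14.2 TPM in Lane 3 and 106.2 ± 7.23 TPM in Lane 4. CRABP2 averaged 84.2 ± 15.8 TPM in Lane 1 (from 50.8 through 85.2 to 119.99), 82.4 ± 11.4 in Lane 2, 86.4 ± 11.2 in Lane 3 and 92.3 ± 9.84 in Lane 4. STRA6 averaged 4.46 ± 1.99 TPM in Lane 1 (from 0.70 through 4.44 to 10.9), 4.20 ± 1.63 in Lane 2, 4.50 ± 1.63 in Lane 3 and 4.16 ± 1.47 in Lane 4. The lane means of STRA6 lay within 1 SD of each other. The Lane 4 mean of CRABP1 exceeded that of Lane 1 by more than the SD of Lane 4, and so did the Lane 4 mean of CRABP2 that of Lane 2. These means cover all libraries, and the lanes hold different numbers. Restricted to the 6 shared numbers, CRABP1 was instead higher in Lane 1, with a mean of 112.2 TPM. Its log2 fold change in Lane 4 against Lane 1 was -0.08 ± 0.11, without a call. For CRABP2 the same 6 numbers had a mean of 86.4 TPM in Lane 2, and Lane 4 was not tested against Lane 2.

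CYP26A1 averaged 6.84 ± 2.65 TPM in Lane 1 (from 1.83 through 6.61 to 16.6), 6.75 ± 2.42 in Lane 2, 7.50 ± 2.14 in Lane 3 and 6.88 ± 1.53 in Lane 4. DHRS3 averaged 12.4 ± 4.31 TPM in Lane 1 (from 3.28 through 11.8 to 26.8), 11.1 ± 2.59 in Lane 2, 10.7 ± 3.31 in Lane 3 and 12.8 ± 2.64 in Lane 4. Over shared numbers DHRS3 had the lowest unadjusted p of the tested members in Lanes 2 and 3, with log2 fold changes of -0.26 ± 0.08 (edgeR p = 0.00263, adjusted p = 1.00) and -0.28 ± 0.14 (edgeR p = 0.0477, adjusted p = 0.999). With the block the adjusted p in Lane 2 was 0.213, so neither passed.

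Library numbers carried differences in these genes that recurred across lanes. In a joint test of 24 numbers over Lanes 1 to 3, with 72 libraries and the lane as a covariate, all 7 tested members were called in edgeR's quasi-likelihood F test. So were 97.4% of 10959 genes, and the members' count is therefore no result about retinoid genes. The noise in this test comes from the same number in different lanes, which may be 1 library sequenced again. Recurrence across lanes may then be no independent repeat. The spread beyond counting stood at edgeR's lower limit of 0.00988 here too. The 6 numbers of Lanes 1 to 4, RLE factors and DESeq2 called 7 members each, and the fit with no filter called 8. Fewer were called with 48 numbers or on thinned counts. With 48 numbers of Lanes 1 and 2, 4 of 6 tested members were called, without CYP26A1 (edgeR adjusted p = 0.0695) and DHRS3 (0.115). That fit called 9241 genes in all. On thinned counts 3 of 5 were called, without CRABP1 (edgeR adjusted p = 0.244) and DHRS3 (0.350). The thinned fit called 7003 genes in all, and these member counts too are no result about retinoid genes. CRABP2 had the largest F of the 7 (5.28, adjusted p = 1.45e-08) and RARG the smallest (2.21, adjusted p = 0.00457). With counts summed over the 3 lanes, CRABP2 ranged from 22.7 CPM through a median of 36.9 CPM to 43.7 CPM over the 24 numbers, CRABP1 from 22.5 through 31.6 to 36.1 CPM, and RARA from 5.52 through 9.93 to 15.5 CPM.

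Among the 7 tested members, which leaves out RARB with its 0 to 7 summed counts per number, the relative spread over the 24 numbers was largest for STRA6, with a coefficient of variation of 30.1% where counting alone gives 16.7%. It was 26.6% for CYP26A1 (14.1% from counting), 23.5% for DHRS3 (12.4%), 21.9% for RARA (10.9%), 12.6% for CRABP2 (5.84%), 11.1% for CRABP1 (6.31%) and 9.52% for RARG (5.26%). Separate libraries commonly spread beyond counting noise, so these values only describe the size of the spread. The sources used here do not say what distinguishes the numbers.

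The order of numbers in Lane 4 recurred in part in the shallower lanes. Among the 6 numbers that all 4 lanes hold, the number with the highest TPM in Lane 4 also had the highest CPM summed over Lanes 1 to 3 for RARA (the number of Lane4_38872, 11.8 CPM against 8.55 to 9.52 CPM in the other 5), STRA6 (Lane4_38869, 7.05 against 1.66 to 4.78), CYP26A1 (Lane4_38871, 7.09 against 4.41 to 5.84), DHRS3 (Lane4_38874, 13.7 against 7.33 to 9.26) and CRABP1 (Lane4_38872, 36.1 against 30.6 to 33.95). For RARG it ranked 2 of 6 and for CRABP2 it ranked 4 of 6. Single lanes varied, since the top number of STRA6 ranked 4 in Lane 1 and that of CRABP1 ranked 3 in Lane 1 and 6 in Lane 2. The number with the lowest TPM in Lane 4 was also the lowest in summed CPM for DHRS3, CRABP1 and CRABP2, but ranked 5 of 6 for STRA6, 4 for RARG, 3 for CYP26A1 and 2 for RARA. These ranks were not tested.

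Genes with the most similar pattern over the 24 numbers, by Pearson's r of log2 CPM among 9932 genes averaging 5 TPM or more, were SAMD4B (0.83) and WBP2 (0.82) for RARG, RALY (0.73) and PDZD4 (0.73) for CRABP2, EXOSC4 (0.72) and FNDC3A (0.72) for RARA, and INSIG2 (0.72) for STRA6. No gene reached 0.7 for CYP26A1, DHRS3 or CRABP1. These are the highest of many correlations across numbers that share depth and lanes, and they are given as a description.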

How the data were processed

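RNA was sequenced on a HiSeq2500. RSEM 1.2.3, Bowtie 0.12.8, CASAVA 1.8.2 and build hg19 are named, with no order or role, per the submitters' processing notes. The authors deposited expected counts and TPM values per gene for 19084 genes in 173 LM-Seq and 6 TruSeq libraries, whose columns were all matched to samples by title (0 columns were left over). RSEM apportions multi-mapping reads by a model, and use of strand in the counting is not stated in the labels.

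Expected counts were rounded and tested with edgeR 4.0.16 in R 4.3.3 (filterByExpr, TMM, quasi-likelihood F test), with Benjamini-Hochberg adjustment over all genes tested and calls below 0.05. Standard errors come from the fold change and its F statistic. The procedure was also run on simulated counts. Their spread was fixed and not matched to each comparison, so that run does not measure error rates in these data. The members, lists and alternatives were chosen with earlier results of these data known. Named list genes were the 6 called genes of each retinoid list with the largest change and at least 1 TPM in the higher group, besides POU5F1, NANOG and SOX2; 1 gene that this rule names is not reported here. Genes of like pattern were the 2 with the highest r of at least 0.7. The TruSeq numbers were not paired (correlation of deviations -0.0334 to 0.0361), whereas same-numbered LM-Seq libraries deviated together, by 0.178 to 0.685 (Lane 2), 0.212 to 0.603 (Lane 3) and 0.378 to 0.432 (Lane 4), each against Lane 1. Chi-square per degree of freedom between libraries of a group was at least 1.29, so none was counted as a duplicate. Alternatives used DESeq2 1.42.0, limma 3.58.1, RLE factors, no filter, thinned counts, other libraries and the replicate number as a block. Promoter sequences are RefSeq's (GRCh38.p14), and no coordinate of the deposited genes is given.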

Additional observations from a re-analysis of the deposited data

Results flagged for a closer look

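In Lane 4, the only group with 4 to 10 libraries, the highest and lowest values of the 8 genes were compared with their neighbours by Dixon's ratio, and 2 values stood apart. Chance sets apart about 1 in 20 groups. DHRS3 was at 17.7 TPM in library Lane4_38874, against 10.1 to 12.95 TPM in the other 5. Its number was at 21.7, 18.01 and 18.7 TPM in Lanes 1, 2 and 3, where it ranked 2, 1 and 1 of the 6 numbers. Without it the log2 fold change of DHRS3 in Lane 4 against TruSeq was 0.00, against 0.14 with it, and neither was called by edgeR. CRABP1 was at 120.19 TPM in library Lane4_38872, against 99.3 to 105.9 TPM in the other 5. Its number was at 114.5, 95.6 and 135.5 TPM in Lanes 1, 2 and 3, where it ranked 3, 6 and 1 of 6. All 6 values of CRABP1 in Lane 4 remained far under the 297.6 TPM of the lowest TruSeq library.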

How the results depend on the processing

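Depth limits RARB in LM-Seq and STRA6 in Lane 1, and p-values cover these libraries only. No result for the members reversed; NANOG in Lane 4 against TruSeq did, at -0.012 on library totals (chosen after seeing the data). Of 1186 single-gene values under alternatives, 40 changed sign where neither fit called them.

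In H1p43 against H1p16, 1 member was called higher and 2 lower. The count called higher was 0 under DESeq2, RLE factors, no filter and a tested fold of 1.5, 2 under both limma fits and library totals, and 0 to 1 on leaving out a library; the count called lower was 1 under limma and library totals and 0 at 1.5-fold, where 1606 genes and 0 members were called. The replicate block called 10463 genes, against 10460, and changed no call of a member.

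In Lane 4 against TruSeq, the 1 member called higher was not called (0) with no filter, library totals, thinned counts, H1p43 or H1p16 alone, Lane 2 or Lane 1 in place of Lane 4, or at 1.5-fold, and 0 to 1 on leaving out a library. At 1.5-fold, 4627 genes and 3 members were called, all 3 lower. No paired analysis was possible because Lane 4 and TruSeq share no replicate numbers.

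Against Lane 1, Lane 2 had 1 call with no filter and 26 with the replicate block, Lane 3 had 44 with the replicate block and 60 with all libraries, and Lane 4 had 13 with the replicate block, 1 on thinned counts, 0 with all libraries and 0 to 1 on leaving out a number. None was a member. Between library numbers, 4 members were called with 48 numbers, with 9241 genes, and 3 on thinned counts, with 7003 genes. The cause of these changes was not tested.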
